A study of Mus musculus with 32 samples.

Results

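The striatum after 2 h of reperfusion was compared with the striatum of sham-operated mice. The 8 arrays were found by their titles, 4 labelled striatum, I/R, 2 h and 4 labelled striatum, sham, out of 32 arrays in the whole series. Both groups were male wild-type mice of 8 to 10 weeks on a C57BL/6J background, and no transgene or deletion is recorded for them. In the I/R mice a suture closed the middle cerebral artery for 2 h and was then withdrawn, and tissue was taken after 2 h of reperfusion (ischaemia and reperfusion, I/R). The sham operation was anaesthesia with a cut in the neck, without a suture. The labels do not state how long after surgery sham tissue was taken, so hours elapsed and I/R cannot be told apart. The other 24 arrays were cortex and the 8 h and 24 h groups of both tissues.

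A suture at the origin of the middle cerebral artery cuts the blood supply of the striatum, which has few collateral vessels, and of much of the overlying cortex. When flow returns, neurons and glia transcribe immediate early genes, which need no new protein synthesis and mostly encode transcription factors such as Fos and Jun. Microglia and vessel cells then release chemokines and cytokines that call leukocytes from the blood, while the blood-brain barrier formed by endothelial cells loosens.

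Total RNA of each tissue was labelled and read on 1 bead array, and the values below are background-corrected, quantile-normalized log2 signals. Median raw signals were 69.7 to 90.9 on the I/R arrays and 57.2 to 103.7 on the sham arrays. Between 52.7% and 54.3% of probes were detected on the I/R arrays, and between 52.6% and 55.2% on the sham arrays. Replicates are separate samples by their labels, which do not tie them to animals, so the p-values measure the spread between these samples. The I/R arrays all sat at position F of their slides and the sham arrays at A or E, so position and group cannot be told apart.

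The label was checked against marker genes. The projection neuron genes Drd1, Drd2, Ppp1r1b, Tac1, Pdyn and Rgs9 were detected on all 4 arrays of both groups, but none of the 11 striatal markers on the array lay above all 4 sham cortex arrays in all 4 sham striatum arrays. Ppp1r1b, which encodes the dopamine signalling protein DARPP-32, averaged 11.37 in I/R and 11.50 in sham striatum, and 11.56 in sham cortex. Adora2a, the adenosine receptor of one class of these neurons, was detected on 1 of 4 I/R and 2 of 4 sham striatum arrays. The thalamic and midbrain genes Tcf7l2, Prkcd, Lhx9, Slc17a6 and Calb2 were higher on all 4 sham striatum arrays than on all 4 sham cortex arrays. Tcf7l2 averaged 9.84 in I/R and 10.12 in sham striatum against 7.12 in sham cortex. The striatal markers thus did not set the labelled striatum apart from the cortex, and "striatum" is used below as the name the labels give. The summed linear signal of the 11 striatal markers was 7193.7 to 19026 on the I/R arrays and 7644.6 to 15953.8 on the sham arrays, a wide range within each group.

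Of 9866 genes tested, 18 (0.182%) passed an adjusted p of 0.05 in limma: 12 (0.122%) were higher and 6 (0.0608%) lower after 2 h of reperfusion. The genes that rose encode chemokines (Ccl3, Ccl4), early transcription factors (Npas4, Fosb, Junb), a brake on cytokine signalling (Socs3), a protease inhibitor (Timp1), a gap junction protein (Gjb2) and 4 others. Those that fell include the vessel transporter Slco1a4, the chemokine Cxcl12 and the amino acid transporter Slc38a2. Of the genes that rose 10 did so by 2-fold or more, and of those that fell 1 did. The median log2 difference of all tested genes was -0.01, and 47.95% of genes lay above 0. At an unadjusted p under 0.05 there were 1024 genes, 452 of them higher and 572 lower. All 4 I/R arrays lay above all 4 sham arrays for 359 genes (3.64%), and below them for 417 genes (4.23%). These shares are the background for the list counts below. Among the genes tested, 556 were not detected on every sham array and 46 on none, and these could enter only through detection after I/R.

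**Figure D1:**
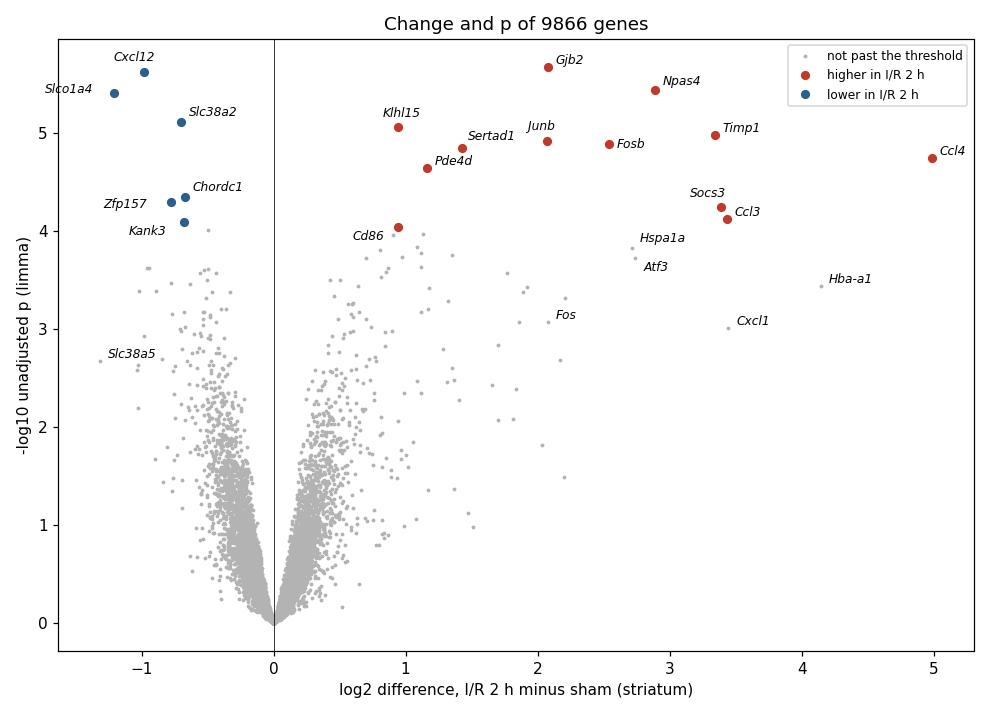
Log2 difference of I/R 2 h minus sham striatum (x axis) against -log10 of the unadjusted limma p (y axis), 1 point per gene for 9866 genes. The 12 genes higher after I/R reach further along the x axis than the 6 lower ones, and Hba-a1 and Cxcl1 have large differences without passing the threshold; differences of genes undetected in sham (Ccl4, Ccl3, Atf3) are fitted values and not bounds.

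The number of calls depended on single arrays. Leaving out I/R array 1, 2, 3 or 4 gave 30, 4, 17 and 7 calls. Leaving out sham array 1, 2, 3 or 4 gave 7, 10, 0 and 9 calls. Without the third sham array the smallest adjusted p was 0.0603, with 810 genes at an unadjusted p under 0.05. Over these 8 fits Gjb2, Cxcl12, Npas4 and Slco1a4 each passed in 7, Slc38a2 in 6, and Klhl15, Junb and Sertad1 in 4. The other 10 genes lost their call in most of them: Timp1, Fosb and Pde4d passed in 3, Ccl4 in 2, Ccl3, Chordc1, Zfp157, Kank3 and Cd86 in 1 and Socs3 in 0, with adjusted p-values of up to 0.191. When the I/R 2 h and sham arrays were fitted alone, without the spread of the later groups, 88 genes passed (59 higher, 29 lower), among them all 18. Leaving only the 24 h arrays out of the fit, a choice made after seeing the data, gave 81. Median scaling in place of quantile normalization gave 13 genes higher and 3 lower, against 12 and 6. Within each of the 3 slides that held both groups, all 18 genes kept their sign, though they were chosen on these same arrays. Of 19 further probes of 12 called genes, 9 passed the detection filter, and 9 of 9 had the sign of the probe used. Those of Cxcl12 (-0.15 and -0.19) and 1 of Cd86 (0.25) were smaller than their standard errors, so their sign says little. Among the probes that did not pass, a second Npas4 and a second Slco1a4 probe were undetected on all 8 arrays.

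**Figure D2:**
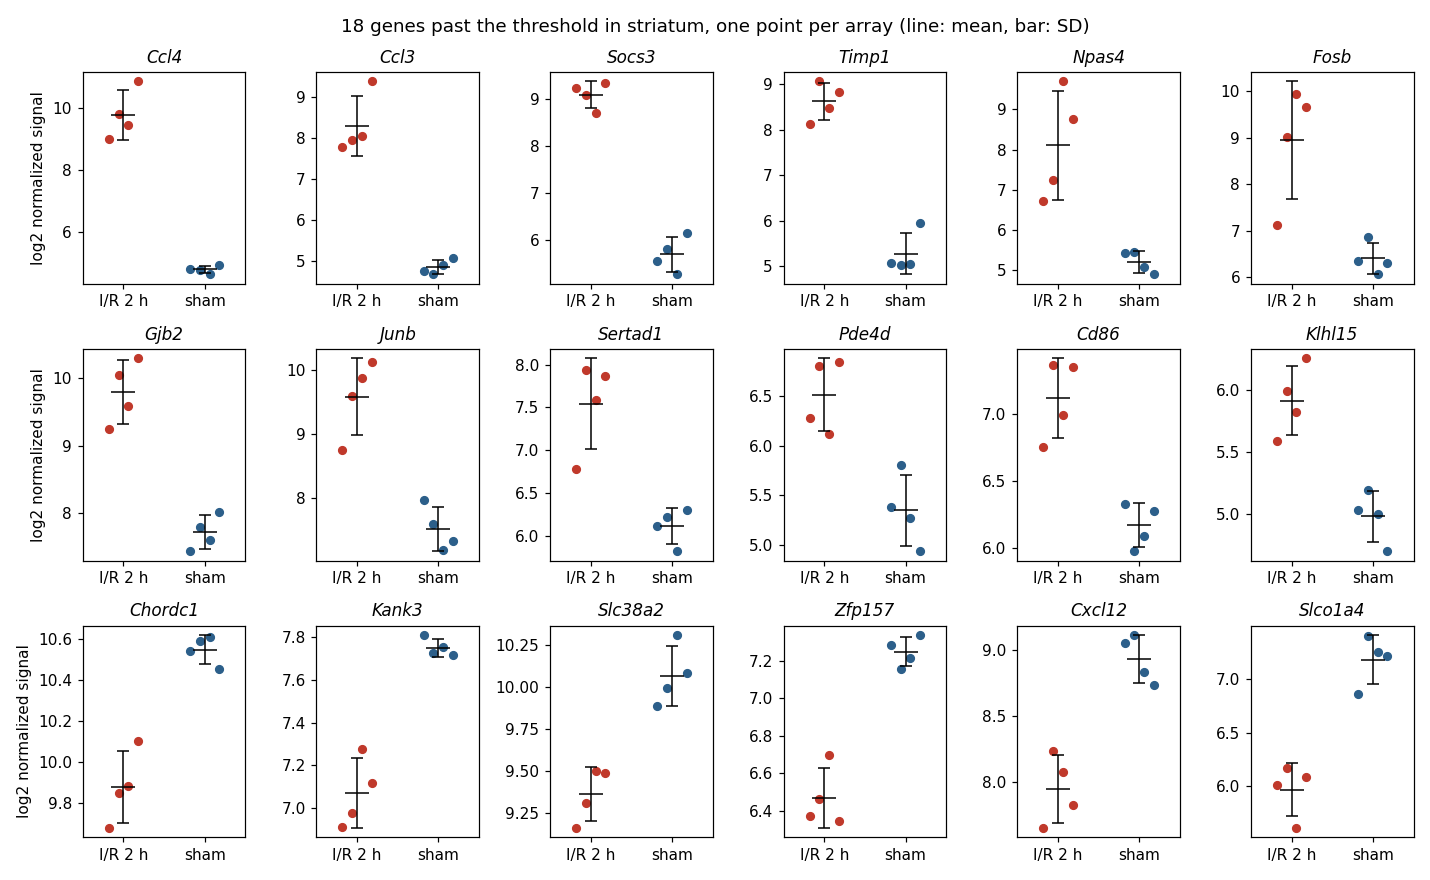
Log2 normalized signal (y axis) of the 18 genes past the threshold, with I/R 2 h left of sham in each panel; points are arrays, horizontal lines are means and bars are SDs of 4 arrays. In all 18 panels the groups do not overlap, and the I/R arrays are widest apart for Npas4 and Fosb.

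Immediate early transcription factors made up the first group of genes that rose. Npas4, a neuronal factor switched on by calcium entry, had log2 signals of 6.72, 7.25, 9.69 and 8.75 on the I/R arrays, against 5.42, 5.46, 5.07 and 4.90 on the sham arrays, of which 2 of 4 detected it. The I/R values spread over almost 3 log2 units, with arrays 3 and 4 above 1 and 2, and none overlapped sham. The difference was 2.89 ± 0.44 (log2, SE; limma adjusted p = 0.0096), a 7.42-fold rise. Fosb, which pairs with Jun proteins in the AP-1 factor, gave 7.13, 9.01, 9.95 and 9.66 after I/R and 6.34, 6.87, 6.07 and 6.31 in sham. Its lowest I/R array was only slightly above the highest sham array. Fosb rose 5.81-fold (log2 2.54 ± 0.43, adjusted p = 0.0138). Junb, another AP-1 subunit, gave 8.76, 9.59, 9.88 and 10.14 after I/R, against 7.97, 7.60, 7.19 and 7.33 in sham. It rose 4.19-fold (log2 2.07 ± 0.35, adjusted p = 0.0138) with no overlap between groups.

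Of 11 listed AP-1 genes 7 were tested, and 2 of 7 rose and none fell. The median log2 difference was 2.07, against -0.01 over all genes. Of the 7, 2 were not detected on all sham arrays, and 1 of these on none. Those 2 entered the test only through detection after I/R. On 6 of 7 all I/R arrays lay above all sham arrays, against 3.64% of all genes. Jund, at 0.59, was the exception. Fos itself had 9.32, 10.87, 11.39 and 11.82 after I/R and 8.68, 8.88, 8.87 and 8.66 in sham, a log2 difference of 2.08 ± 0.52 that did not pass (adjusted p = 0.105). Its first I/R array stayed close to sham and the other 3 were well above. Atf3, a stress-induced repressor of the same family, was detected on all 4 I/R arrays (5.91, 7.26, 8.82 and 7.86) and on no sham array (4.64, 4.98, 4.60 and 4.68). It was at least 4.83-fold higher by the detection limit, with an adjusted p of 0.0638.

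The early response list of Egr, Klf and Ier genes, Mcl1 and Srf had no call among 10 tested genes, with a median of 0.69. All I/R arrays lay above sham for 6 of 10, against 3.64% of all genes. Of the 10, 1, Egr2, was not detected on all sham arrays. Egr4 had 8.82, 10.29, 10.91 and 11.41 after I/R, against 8.39, 8.80, 7.63 and 7.76 in sham (log2 2.21 ± 0.52, adjusted p = 0.0826). Egr1 had 11.56, 12.64, 12.89 and 13.34 after I/R and 11.61, 11.84, 11.23 and 11.29 in sham, so that its lowest I/R array fell within the sham range. Egr2 overlapped in the same way, with a difference of 1.70 ± 0.45. Of 17 tested neuronal activity genes 1, Npas4, rose and none fell, and the median was 0.72. On the sham arrays 3 of 17, Npas4 among them, were not all detected, and these entered only through detection after I/R. All I/R arrays lay above sham for 5 of 17, against 3.64% of all genes. Arc, whose protein acts at synapses, had 8.19, 8.43, 10.43 and 9.14 after I/R and 8.18, 7.78, 7.41 and 7.34 in sham, with array 3 far above the other I/R arrays. Gadd45b, a stress-induced regulator, had 7.40, 8.18, 8.49 and 8.49 after I/R, against 6.41, 6.18, 6.25 and 6.65 in sham, and Bdnf, a neurotrophin, overlapped at a difference of 0.69 ± 0.38.

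The sequence before the start of some of the genes that rose is shown here, since these genes rose together. The 250 bases before the annotated start come from RefSeq (GRCm38.p6) and read 5′ to 3′ on the strand of the gene. The genes searched were picked among those that rose, with their values known. Both strands were searched first for the CRE (TGACGTCA), the AP-1 site (TGANTCA), the STAT site (TTCNNNGAA), the TATA box (TATAAA) and the CArG box, which matched only in Socs3. The CRE half-site (TGACG) was added after that result and after the sequences had been seen, so its matches are a description of letters and support nothing. A full CRE holds 2 overlapping half-sites, one on each strand. Capitals mark the matches.
Npas4 (chr19:4989972-4990221, minus strand): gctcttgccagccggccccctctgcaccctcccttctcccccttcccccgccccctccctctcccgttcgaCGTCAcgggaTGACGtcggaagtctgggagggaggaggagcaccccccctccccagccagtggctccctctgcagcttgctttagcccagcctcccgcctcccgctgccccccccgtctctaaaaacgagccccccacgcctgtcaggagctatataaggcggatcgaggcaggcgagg
Fosb (chr7:19310046-19310295, minus strand): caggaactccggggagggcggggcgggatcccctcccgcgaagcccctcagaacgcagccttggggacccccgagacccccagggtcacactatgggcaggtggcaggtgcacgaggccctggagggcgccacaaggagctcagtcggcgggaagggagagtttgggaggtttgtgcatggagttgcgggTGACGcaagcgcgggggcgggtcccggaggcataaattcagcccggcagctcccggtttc
Junb (chr8:84978749-84978998, minus strand): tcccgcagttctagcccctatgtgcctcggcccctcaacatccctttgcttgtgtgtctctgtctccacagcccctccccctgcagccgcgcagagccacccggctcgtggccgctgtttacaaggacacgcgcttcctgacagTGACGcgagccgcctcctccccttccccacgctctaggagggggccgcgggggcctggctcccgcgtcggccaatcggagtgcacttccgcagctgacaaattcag
Socs3 (chr11:117969367-117969616, minus strand): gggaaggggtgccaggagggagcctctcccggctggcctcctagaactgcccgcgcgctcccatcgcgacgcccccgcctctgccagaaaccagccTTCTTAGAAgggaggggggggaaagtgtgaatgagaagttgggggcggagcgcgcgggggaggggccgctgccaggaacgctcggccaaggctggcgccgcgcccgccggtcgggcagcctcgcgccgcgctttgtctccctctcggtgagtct
Ccl3 (chr11:83649379-83649628, minus strand): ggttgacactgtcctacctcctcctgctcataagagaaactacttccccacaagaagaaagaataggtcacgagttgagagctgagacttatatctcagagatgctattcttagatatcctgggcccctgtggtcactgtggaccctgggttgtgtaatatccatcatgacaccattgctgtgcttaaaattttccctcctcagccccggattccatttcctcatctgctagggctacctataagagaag

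Npas4 held 2 half-sites, starting 179 and 169 bases before the start, and Fosb and Junb held 1 each, at 60 and 106 bases. Half-sites occurred in 17.8% of 32851 promoters of the same length. Socs3 held 1 STAT site, TTCTTAGAA, at 154 bases, a motif found in 7.02% of promoters. Ccl3 held none of the motifs searched. Sertad1 also held none and Timp1 held 1 half-site at 84 bases. No full CRE (in 1.55% of promoters), AP-1 site (6.75%), TATA box in these letters (12.4%) or CArG box (1.47%) lay in these 7 windows. Ccl4 was not looked at in this way.

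Chemokines were the second group of genes that rose. Ccl4 and Ccl3, chemokines of microglia and macrophages, were both undetected on all 4 sham arrays and detected on all 4 I/R arrays. Ccl4 had 8.99, 9.81, 9.45 and 10.87 after I/R, against 4.82, 4.78, 4.64 and 4.94 in sham, and was at least 24.1-fold higher (adjusted p = 0.0162). A second Ccl4 probe was also undetected in sham. Ccl3 had 7.77, 7.96, 8.04 and 9.37 after I/R and 4.75, 4.69, 4.90 and 5.07 in sham, and was at least 8.54-fold higher (adjusted p = 0.046). Array 4 had the highest I/R value of both genes. Without that array neither passed (adjusted p = 0.0701 for Ccl4 and 0.164 for Ccl3 in limma). Losing the call was not particular to array 4. Of the 8 fits that left out 1 array, Ccl4 passed in 2 and Ccl3 in 1. Over 15 settings other than leaving out 1 array, Ccl4 passed in 13 and Ccl3 in 7, at adjusted p-values of up to 0.876 for Ccl4 and 0.536 for Ccl3.

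Of 20 listed chemokines 14 were tested; 2 rose and 1 fell. Of these 14, 5 were undetected on all sham arrays and 9 on at least 1, so most entered the test through detection after I/R, and no median is given for them. Cxcl1, which attracts neutrophils, had 9.83, 9.002, 6.93 and 7.96 after I/R and 4.57, 5.23, 5.04 and 5.11 in sham, where 1 of 4 arrays detected it. Its difference of 3.44 ± 0.87 did not pass (adjusted p = 0.113), and arrays 1 and 2 were above 3 and 4. Ccl7, a monocyte chemokine, had 7.19, 7.76, 5.32 and 6.39 after I/R and 4.57, 4.68, 4.62 and 4.67 in sham, and was at least 2.78-fold higher (adjusted p = 0.336). Cxcl12, which guides leukocytes and neural precursors, moved the other way. It had 7.65, 8.24, 8.07 and 7.83 after I/R, against 9.05, 9.11, 8.83 and 8.73 in sham, and fell to a 1.98-fold lower level (log2 -0.98 ± 0.15, adjusted p = 0.0096). Probes for other Cxcl12 transcripts gave -0.15 and -0.19, so the fall was measured with 1 of the 3 detected probes.

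The 2 interleukin 1 genes were undetected on all 4 sham arrays and detected on all 4 I/R arrays. Il1b, a secreted mediator of inflammation, had 6.39, 6.94, 5.45 and 7.39 after I/R and 4.78, 4.68, 4.70 and 4.67 in sham, and was at least 2.56-fold higher (adjusted p = 0.216). Il1a, which acts as an alarm signal from damaged cells, had 5.75, 6.23, 5.96 and 8.61 after I/R and 4.65, 4.71, 4.69 and 4.80 in sham. Array 4 was far above the other 3 I/R arrays, and the bound was 2.73-fold (adjusted p = 0.0763). Of 9 tested members of the interleukin 1, TNF and interleukin 6 families none was called, and 4 of 9 were not detected on all sham arrays. The receptor subunit Osmr had 6.55, 7.33, 6.78 and 7.03 after I/R and 5.29, 6.10, 6.04 and 6.39 in sham (adjusted p = 0.356), and Tnf was not among the genes tested.

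Socs3, which is induced by STAT3 and switches off cytokine receptors, had 9.23, 9.09, 8.70 and 9.35 after I/R and 5.56, 5.82, 5.29 and 6.16 in sham. The 4 I/R arrays lay close together, more than 2 log2 units above the highest sham array. Socs3 rose 10.5-fold (log2 3.39 ± 0.65, limma adjusted p = 0.0375). It passed in none of the 8 fits that left out 1 array, at an adjusted p of at most 0.138. Its SD was 0.28 after I/R, 0.37 in sham and 2.10 at 24 h, and the SE pools the spread of all striatum groups. In the NF-kB and cytokine feedback list 1 of 17 tested genes rose and none fell. The median was 0.49 (0.42 with the gene undetected in sham at its bound). All I/R arrays lay above sham for 9 of 17, against 3.64% of all genes. Of the 17, 2 were not detected on all sham arrays and entered the test only through detection after I/R. Cd14, the co-receptor for endotoxin, had 8.25, 8.74, 7.99 and 8.73 after I/R, against 6.05, 5.94, 6.24 and 6.78 in sham (adjusted p = 0.166). Zfp36, whose protein destabilizes cytokine mRNA, had 8.57, 8.79, 8.64 and 9.43 after I/R, against 7.10, 6.92, 7.08 and 6.77 in sham (adjusted p = 0.0765). Both were higher on every I/R array without passing.

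Timp1, an inhibitor of matrix proteases made by astrocytes and vessel cells, had 8.12, 9.05, 8.48 and 8.83 after I/R and 5.07, 5.03, 5.05 and 5.95 in sham, where 1 of 4 arrays detected it. Sham array 4 stood above the other 3 and still lay well below I/R. Timp1 rose 10.2-fold (log2 3.34 ± 0.55, adjusted p = 0.0138), and its second probe gave 3.47. Gjb2, which encodes connexin 26 of gap junctions, had 9.25, 10.05, 9.59 and 10.29 after I/R and 7.44, 7.80, 7.61 and 8.02 in sham. It rose 4.21-fold (log2 2.08 ± 0.30, adjusted p = 0.0096), and 2 further probes gave 1.97 and 1.22. Timp1 was the 1 of 18 tested reactive astrocyte genes that rose, and none fell. The list median was 0.47, and 5 of 18 were not detected on all sham arrays. Those 5 entered the test only through detection after I/R. All I/R arrays lay above sham for 7 of 18, against 3.64% of all genes. Timp1 was among both the 5 and the 7, so the filter favoured part of this count. Emp1, a membrane protein, had 8.07, 9.17, 8.51 and 9.18 after I/R, against 6.71, 7.004, 7.06 and 7.37 in sham (adjusted p = 0.276), and Gfap, the astrocyte filament, overlapped at 0.42 ± 0.27. Homeostatic astrocyte genes had a median of 0.02 with no call among 14.

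The remaining 4 genes that rose changed by less. Sertad1, a regulator of cell cycle kinases and E2F factors, had 6.78, 7.94, 7.59 and 7.86 after I/R and 6.12, 6.22, 5.83 and 6.31 in sham (log2 1.42 ± 0.24, adjusted p = 0.0138). Pde4d, which breaks down cyclic AMP, had 6.28, 6.80, 6.12 and 6.84 after I/R and 5.38, 5.80, 5.27 and 4.94 in sham, where 3 of 4 arrays detected it (log2 1.16 ± 0.21, adjusted p = 0.0186). Their groups did not overlap, and a second Pde4d probe was undetected on all 8 arrays. Klhl15, an adaptor of a ubiquitin ligase, had 5.59, 5.99, 5.83 and 6.26 after I/R and 5.03, 5.19, 4.998 and 4.70 in sham, where 1 of 4 arrays detected it (log2 0.94 ± 0.15, adjusted p = 0.0138). Cd86, a co-stimulatory receptor of microglia and other antigen-presenting cells, had 6.75, 7.36, 6.99 and 7.35 after I/R and 6.33, 5.98, 6.09 and 6.28 in sham. Its rise of 0.94 ± 0.19 had the weakest support of the 18 (adjusted p = 0.0489), and 1 of its 2 other probes gave 0.25 and the other 0.92.

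Among the genes that fell, Slco1a4, an organic anion transporter of brain endothelium, had 6.01, 6.17, 5.61 and 6.08 after I/R and 6.86, 7.40, 7.25 and 7.21 in sham. No I/R array reached the lowest sham array. Slco1a4 fell by 1.21 ± 0.19 on the log2 scale, to a 2.31-fold lower level (adjusted p = 0.0096). It was the 1 of 20 tested endothelial genes to fall, and none rose. The list median was -0.34, against -0.01 over all genes. On all I/R arrays 7 of 20 lay below sham, against 4.23% of all genes. Cldn5, the main claudin of the blood-brain barrier, had 8.38, 8.57, 8.14 and 8.12 after I/R, against 9.25, 8.79, 8.88 and 9.11 in sham (log2 -0.70 ± 0.18, adjusted p = 0.118). Ly6c1, a surface protein of brain vessels, had 8.98, 8.99, 9.004 and 8.14 after I/R, against 9.88, 9.74, 9.58 and 9.85 in sham (log2 -0.98 ± 0.25, adjusted p = 0.12), and array 4 was lowest. Neither passed, although no I/R array reached sham.

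The summed signal of the 10 defining endothelial markers was 1367.2 to 1956.4 on the I/R arrays and 2492.5 to 2808 on the sham arrays, with no overlap. Kdr, Cdh5 and Abcb1a were undetected in both groups. In bulk tissue fewer endothelial cells and less RNA per cell cannot be told apart. Pericyte and smooth muscle genes had a median of 0.02 with no call among 7, and Flt1, a VEGF receptor, overlapped at -0.38 ± 0.21. Tek, the angiopoietin receptor, had 5.50, 6.26, 6.44 and 5.90 after I/R, against 6.47, 6.64, 6.65 and 6.89 in sham (adjusted p = 0.209). Slc38a5, a glutamine transporter, had 5.20, 6.22, 5.89 and 5.39 after I/R, against 6.58, 6.76, 6.75 and 7.87 in sham. Its fitted difference of -1.31 ± 0.37 was the largest downward one among genes whose groups did not overlap, without passing (adjusted p = 0.166).

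The other genes that fell were expressed at moderate levels. Slc38a2, which carries neutral amino acids such as glutamine, had 9.16, 9.31, 9.50 and 9.49 after I/R and 9.89, 9.99, 10.31 and 10.08 in sham (log2 -0.70 ± 0.11, adjusted p = 0.0138). A second detected probe gave -0.36. Chordc1, a partner of the chaperone Hsp90, had 9.68, 9.85, 9.88 and 10.10 after I/R and 10.54, 10.59, 10.61 and 10.45 in sham (log2 -0.67 ± 0.13, adjusted p = 0.0336). Zfp157, a zinc finger protein, had 6.37, 6.46, 6.70 and 6.35 after I/R and 7.28, 7.16, 7.22 and 7.34 in sham (log2 -0.78 ± 0.15, adjusted p = 0.0349). In all 3 the groups were apart, and the I/R arrays were the lower ones. Kank3, a cytoskeletal adaptor, had 6.91, 6.98, 7.28 and 7.12 after I/R and 7.81, 7.72, 7.75 and 7.71 in sham (log2 -0.68 ± 0.13, adjusted p = 0.0461).

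**Figure D3:**
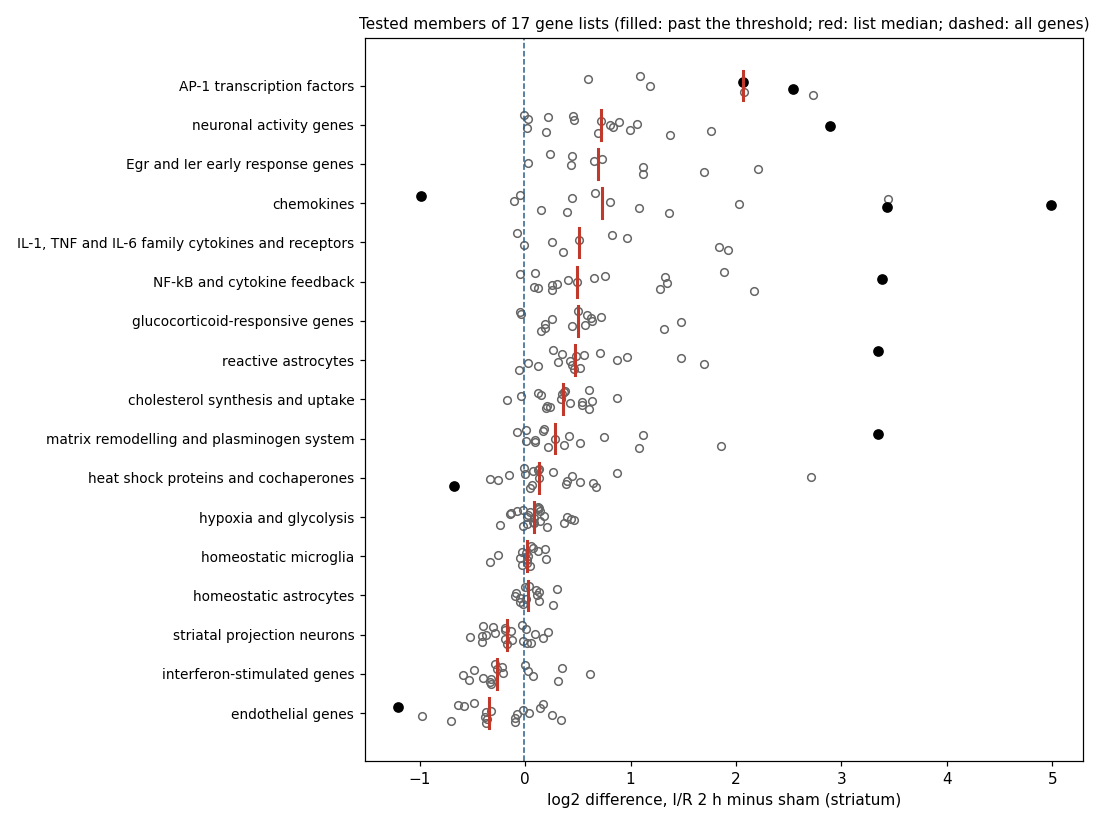
Log2 difference of I/R 2 h minus sham striatum (x axis) for each tested gene of 17 lists (rows); filled points passed the threshold, red bars are list medians and the dashed line is the median of all genes. The AP-1 list has the highest median, 2.07, and the endothelial list the lowest, -0.34. Not detected on all sham arrays were 9 of 14 chemokines and 2 of 7 AP-1 genes. Points of genes undetected in sham are fitted values and not bounds.

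Chordc1 was also the only called gene among 21 tested heat shock proteins and cochaperones, whose median was 0.13. Hspa1a, the stress-induced Hsp70, had 10.05, 9.21, 10.94 and 9.73 after I/R and 7.11, 7.04, 7.84 and 7.08 in sham, a difference of 2.71 ± 0.57 that did not pass (adjusted p = 0.0633). Hspb1, a small heat shock protein, had 0.87 ± 0.54, and its groups did not overlap. The list thus held 1 gene that fell and several with positive differences that did not pass. Ppp1r15a, which encodes the stress phosphatase subunit GADD34, had 7.58, 7.83, 8.18 and 7.97 after I/R, against 6.82, 6.83, 6.63 and 6.74 in sham, and missed the threshold at an adjusted p of 0.0512.

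No gene was called in the cholesterol synthesis, glucocorticoid-responsive, p53, hypoxia and glycolysis, ER stress or oxidative stress lists. Cholesterol genes had a median of 0.36, with 16 of 18 above 0. All I/R arrays lay above sham for 5 of 18, against 3.64% of all genes. Of the 18, 2 were not detected on all sham arrays and entered the test only through detection after I/R. Mvd, an enzyme of the mevalonate pathway, had 8.03, 8.01, 7.90 and 7.80 after I/R, against 7.22, 6.72, 7.03 and 7.29 in sham (adjusted p = 0.0679). Glucocorticoid-responsive genes had a median of 0.50, with 13 of 15 above 0. Cdkn1a, the cell cycle inhibitor p21, belongs to that list and had 10.66, 9.97, 9.95 and 9.95 after I/R, against 8.74, 8.87, 9.003 and 8.65 in sham (adjusted p = 0.203). Hypoxia and glycolysis genes had a median of 0.08 over 24 genes. Hmox1, the haem-degrading enzyme, had 7.38, 6.06, 6.92 and 6.39 after I/R, against 5.07, 5.55, 5.51 and 5.95 in sham (adjusted p = 0.464). Interferon-stimulated genes had a median of -0.27, with 12 of 17 below 0 and no call. The medians of the p53 (0.14 over 18), ER stress (0.11 over 20) and oxidative stress lists (0.07 over 20) were closer to that of all genes. So were those of circadian clock (0.10 over 15), complement (0.10 over 9), histone (0.13 over 8), ribosomal protein (0.06 over 23), respiratory chain (-0.06 over 24) and proteasome genes (0.02 over 22), and growth factor genes had 0.25 over 15, all without a call.

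Further genes had large differences in both directions without passing. Ier3, an early response gene against cell death, had 9.95, 9.97, 9.52 and 9.997 after I/R, against 8.85, 8.45, 8.64 and 9.04 in sham (adjusted p = 0.0638). Dusp1, a phosphatase that switches off stress kinases, had 10.68, 11.004, 11.06 and 11.62 after I/R, against 10.22, 10.39, 10.34 and 10.18 in sham (adjusted p = 0.0636). Dual-specificity phosphatases as a list held no call among 9 tested genes, with a median of 0.41. All I/R arrays lay above sham for 3 of 9, against 3.64% of all genes. Ccn1, a matrix protein induced by growth factors, had 6.09, 6.59, 7.45 and 6.85 after I/R and 5.0, 4.98, 4.75 and 4.83 in sham, where no array detected it, and was at least 2.94-fold higher (adjusted p = 0.105). Adamts1, a matrix protease, had 6.16, 6.57, 6.20 and 6.64 after I/R, against 5.72, 5.03, 5.32 and 5.18 in sham, where 2 of 4 arrays detected it (adjusted p = 0.203). The matrix remodelling and plasminogen list had a median of 0.29 over 17 genes (0.21 with the 2 undetected in sham at their bounds). Timp1 was its 1 call. Of the 17, 5 were not detected on all sham arrays and entered the test only through detection after I/R. All I/R arrays lay above sham for 6 of 17, against 3.64% of all genes. Timp1, Ccn1 and Adamts1 were among both the 5 and the 6, so the filter favoured part of this count. Tubb6, a tubulin, had 7.36, 7.58, 7.14 and 7.79 after I/R, against 5.61, 5.72, 5.37 and 5.92 in sham (adjusted p = 0.276), while the median of 13 tested tubulins was -0.02. Every one of these genes was higher on all 4 I/R arrays than on any sham array.

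Other genes had downward differences without passing. Cfp, the complement regulator properdin, had 7.38, 7.46, 7.79 and 7.58 after I/R, against 8.54, 8.71, 8.44 and 8.36 in sham (log2 -0.96 ± 0.21, adjusted p = 0.0679). Icam2, an adhesion molecule of endothelium, had 4.95, 5.61, 5.47 and 5.24 after I/R, where 3 of 4 arrays detected it, and 6.39, 6.24, 6.14 and 6.05 in sham (adjusted p = 0.0765). Ly6a, known as Sca-1, had 10.02, 10.10, 9.74 and 8.97 after I/R, against 10.996, 10.74, 10.41 and 10.84 in sham (adjusted p = 0.179). All 3 lay below sham on every I/R array. Zic4, a zinc finger factor, had 6.26, 6.47, 5.72 and 5.31 after I/R, against 6.53, 6.99, 7.38 and 6.96 in sham (adjusted p = 0.0765), and its highest I/R array came close to the lowest sham array. Lime1, an adaptor of receptor signalling, differed by -0.85 ± 0.23 and Fam180a by -1.03 ± 0.29, again without overlap. Ramp3, an accessory protein of the adrenomedullin receptor, had 8.84, 8.08, 7.80 and 8.05 after I/R, against 9.34, 9.12, 9.37 and 8.70 in sham, and its first I/R array reached the sham range (adjusted p = 0.0679).

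The lists of neuronal subtype, receptor, channel and resident glial genes held no call. Striatal projection neuron genes had a median of -0.17 over 21 genes, with 15 below 0 and none without overlap. Drd1, the D1 dopamine receptor, had 8.55, 10.45, 8.47 and 9.23 after I/R and 10.09, 10.18, 8.88 and 9.18 in sham, a spread within each group wider than the difference of -0.41 ± 0.55. Ppp1r1b differed by -0.13 ± 0.43 and Drd2 by -0.02 ± 0.32. Glutamate and GABA receptor subunits (median 0.02 over 19 genes), ion channels (-0.02 over 32), homeostatic microglia (0.02 over 15) and myelin genes (0.12 over 14) had medians near that of all genes. Interneuron genes (0.01 over 12), synaptic vesicle genes (0.06 over 16), protocadherins (0.07 over 11) and choroid plexus genes (-0.01 over 11) did too. Cortical neuron genes had a median of 0.20 over 10 genes and diencephalon and midbrain genes -0.20 over 18. The 6 diencephalon markers summed to 11484.1 to 13941.3 on the I/R arrays and 13623.7 to 17044.1 on the sham arrays, with a small overlap. Whether the tissue content of the pieces differed between the groups was not tested. P2ry12, the purine receptor of resting microglia, differed by 0.03 ± 0.29, and Mbp, a myelin protein, by 0.12 ± 0.10.

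The I/R arrays differed among themselves in 3 sets of genes, picked after their values were seen. Hba-a1, a haemoglobin chain, had 12.51, 12.89, 8.28 and 8.02 after I/R and 6.41, 6.05, 6.38 and 6.29 in sham, so arrays 1 and 2 exceeded 3 and 4 by about 4 log2 units (difference 4.14 ± 0.95, adjusted p = 0.0759). Hbb-bt, a second haemoglobin chain, had 7.91, 8.11, 5.35 and 5.39 after I/R and 4.69, 5.005, 5.24 and 5.21 in sham, with the same arrays high. The summed signal of the 3 red blood cell markers on the array was 327.6 to 7967.7 in I/R and 121 to 144.1 in sham. Of the neutrophil genes, S100a8 had 8.49, 9.33, 7.38 and 5.84 after I/R and 4.86, 5.25, 5.09 and 7.03 in sham, where array 4 was high, and its groups overlapped. Lcn2 had 9.11, 8.92, 7.47 and 8.06 after I/R and 6.57, 6.34, 6.66 and 8.09 in sham, again with sham array 4 high. The 8 neutrophil markers summed to 525.3 to 1523.7 in I/R and 299 to 612.8 in sham, and Cxcr2 and Mmp8 were undetected in both groups. Mmp9 averaged 5.675 in I/R and 5.579 in sham, and Csf3r 5.557 and 5.228. The markers thus did not all share the higher I/R means of S100a8 and Lcn2. Over the genes tested the medians were 1.66 for 3 red blood cell genes, 0.33 for 7 neutrophil genes, of which 4 were not detected on all sham arrays, and 0.25 for 8 monocyte genes, with no call.

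Arrays 1 and 2 were also the higher ones for Cxcl1 and Ccl7, while arrays 3 and 4 were the higher ones for Npas4, Fosb, Fos, Egr4, Arc and Atf3. The part of blood and leukocyte RNA in these values was not tested. On I/R array 4, Ttr, the transthyretin of choroid plexus, was at 11.26, against at least 13.90 on the other 3 I/R arrays and 13.77 to 14.01 in sham. The choroid plexus and ependyma markers summed to 2955.3 to 18275.9 in I/R and 15173.4 to 17628.6 in sham. Mt3, a neuronal metallothionein, was also lowest there (11.16, 10.79, 11.08 and 9.65 after I/R, 11.997, 11.47, 11.20 and 11.23 in sham). With I/R array 4 and sham array 4 both left out, a setting chosen after these values were seen, limma called 0 genes, with 961 at an unadjusted p under 0.05 and a smallest adjusted p of 0.0797.

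**Figure D4:**
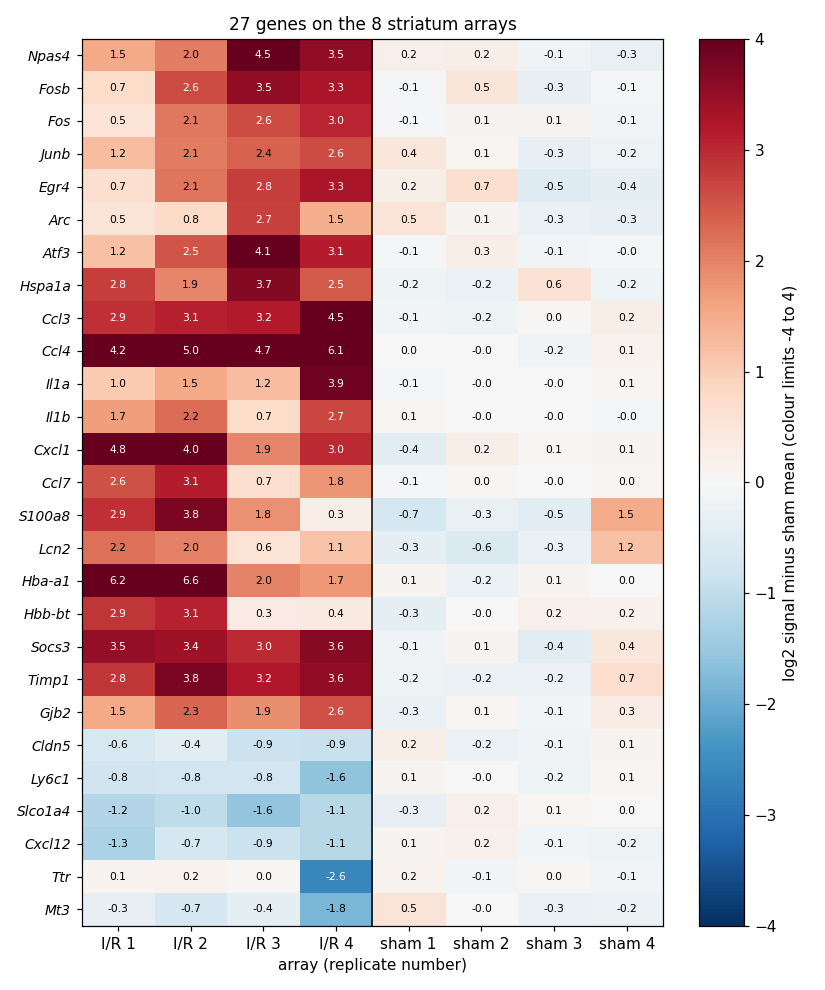
Log2 signal minus the sham mean (colour and printed value) for 27 genes (rows) on the 8 striatum arrays (columns, I/R 2 h left of sham). Haemoglobin genes and Cxcl1 are highest on I/R arrays 1 and 2, Npas4 and Atf3 on arrays 3 and 4, and Ttr is low on I/R array 4 alone.

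The later groups placed the 2 h values in time. All 12 genes that rose at 2 h were above the sham mean at 8 h, and 11 of 12 at 24 h. Of the 6 that fell, 6 were below the sham mean at 8 h and 5 at 24 h. These later differences use the same sham arrays and were not tested here. Npas4 averaged 5.21 ± 0.27 in the sham group, 8.10 ± 1.36 at 2 h of reperfusion, 6.14 ± 0.28 after 8 h and 5.35 ± 0.44 after 24 h (log2, SD, n = 4 each). Fosb averaged 6.40 ± 0.34, 8.94 ± 1.27, 7.38 ± 0.44 and 5.68 ± 0.40 over the 4 groups, so that its 24 h mean lay below sham. Both means were highest at 2 h.

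Timp1 averaged 5.28 ± 0.45 in the sham group, 8.62 ± 0.41 at 2 h, 9.30 ± 0.69 after 8 h and 9.45 ± 1.66 after 24 h, and stayed high. Ccl4 averaged 4.79 ± 0.12, 9.78 ± 0.80, 10.15 ± 0.33 and 8.44 ± 2.85 over the same groups, with a wide spread at 24 h. Slco1a4 averaged 7.18 ± 0.23 in the sham group, 5.97 ± 0.25 at 2 h, 6.35 ± 0.38 after 8 h and 7.70 ± 0.20 after 24 h. The endothelial transporter was low at 2 h and 8 h and above sham at 24 h. Cldn5 had the same order of means, with 8.30 ± 0.21 at 2 h and 9.90 ± 0.23 at 24 h.

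**Figure D5:**
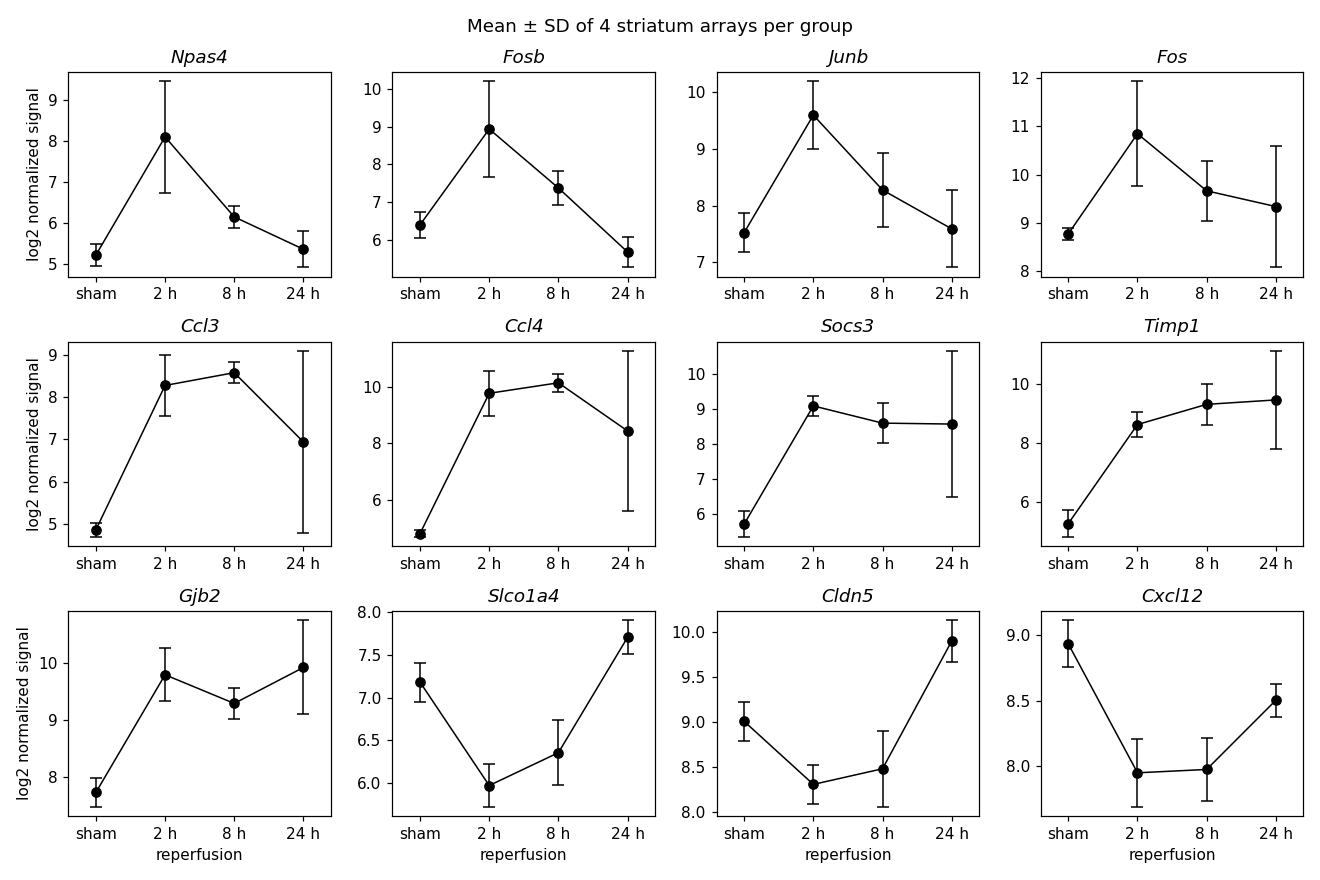
Mean log2 normalized signal with SD (y axis) of 12 genes in sham striatum and at 2, 8 and 24 h of reperfusion (x axis, groups evenly spaced), n = 4 arrays each. Npas4, Fosb, Junb and Fos are highest at 2 h, Timp1 and Socs3 stay above sham to 24 h, and Slco1a4 and Cldn5 are lowest at 2 h.

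The 2 h change of the striatum was set against that of the cortex of the same series in a fit of all 32 arrays. Of 10081 genes, 0 differed in response between the tissues in limma (0% called), with 561 at an unadjusted p under 0.05 and a smallest adjusted p of 0.638. All 18 genes had the same sign in cortex, where the sham and I/R arrays are different ones. Whether a cortex and a striatum array come from the same animal is not stated. The fit treated all arrays as independent, so the shared sign may not be independent of the striatum result. Npas4 changed by 3.25 in cortex against 2.89 in striatum, a striatum minus cortex difference of -0.36 ± 0.85 (log2, SE). The difference was -0.12 ± 0.56 for Gjb2 and 0.00 ± 0.22 for Cxcl12. Of the 18 genes, Slc38a2 showed the largest difference relative to its error, -0.50 ± 0.14, with -0.70 in striatum and -0.20 in cortex, but its adjusted p was 0.78.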

How the data were processed

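The deposited values were bead array intensities, exported by the authors with BeadStudio without normalization, per the file headers, and probes without a value (837) were left out. The detection values are fractions, deposited as 1 minus the detection p. Those of striatum probes were taken over by matching signals. Cortex detection was deposited per gene, so the value of each cortex probe was interpolated from its signal on the same array. The same was done for any striatum probe left without a match. The series matrix holds ratios that the authors deposited without stating how they were made; from the values, each is a signal over the mean of the 4 sham arrays of its tissue. A further 8 columns match no sample here and were not used. Replicates are named by the number in the table of the whole series, which differs from the number in the sample descriptions on all 32 arrays, with the group the same on all 32.

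Signals were corrected for background with limma 3.58.1 (R 4.3.3; normexp from the detection p, offset 16), quantile-normalized over 32 arrays and put on the log2 scale. Probes detected (p under 0.05) on all 4 arrays of at least 1 striatum group were kept, and the probe with the highest mean stood for its gene. Of 25697 probes, 23876 were named through an accession in RefSeq, 1437 by symbol and 384 kept the name in the file. All 16 striatum arrays were fitted together (lmFit, eBayes with a variance trend; 2-sided, Benjamini-Hochberg over all genes, threshold 0.05), and the tissue difference used all 32. The fit was tested on simulated data. A gene undetected on all arrays of a group has only a bound: its fold is at least the mean of the detected group over the detection limit of the other arrays.

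The samples, the 42 gene lists and the rules were chosen with earlier results of these data known. Named were the genes past the threshold, the 10 largest differences each way among genes whose groups did not overlap, up to 4 members of each list with the largest differences, and a panel of early, inflammatory, vessel and cell type genes, of which 27 were tested; Nr4a1, Hspa1b, Tnf and Penk did not pass the detection filter. The genes in the heat map and the time plot, the 17 lists plotted, the promoters shown and 1 of the 6 motifs were chosen after their values or sequences were seen. Of the named genes, 2 are not reported here and are left out of the search for single arrays that stood apart. The number of arrays limits the precision.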

Additional observations from a re-analysis of the deposited data

Results flagged for a closer look

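Single arrays of the 4 in a group stood apart for 23 of 360 gene and group combinations looked at (180 named genes in both groups), by a gap to the nearest other array beyond Dixon's critical value at the 95% level. Chance alone sets apart about 1 group in 20.

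I/R array 4 accounted for 9 of the 23. It was the high one for Ccl3 (9.37, against 7.77 to 8.04 on the other 3), Il1a (8.61, against 5.75 to 6.23), Rpl3 (13.92) and Syt4 (12.48). It was the low one for Ttr (11.26, against 13.90 to 14.01), Ly6c1 (8.14), Ndufb3 (10.42), Ndufa1 (11.51) and Ndufa2 (10.98). Ccl3 is among the 18 genes past the threshold, and did not pass without that array (limma adjusted p = 0.164). It passed in only 1 of the 8 fits that left out 1 array, so this was not particular to array 4. I/R array 2 was high for H2bc6 (7.59), Cplx2 (10.77) and Scn4b (11.47) and low for Pcdh7 (5.78). I/R array 1 was high for Cdkn1a (10.66) and low for Mrc1 (5.95) and Opalin (10.03), and I/R array 3 was low for Ier3 (9.52).

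Sham array 4 was the high one for Timp1 (5.95, against 5.03 to 5.07 on the other 3), Slc38a5 (7.87, against 6.58 to 6.76) and Serping1 (8.10, against 7.28 to 7.34). Sham array 3 was high for Hspa1a (7.84, against 7.04 to 7.11) and low for Slc17a7 (8.83) and Tbr1 (5.98). What set these arrays apart was not tested.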

How the results depend on the processing

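The count of 18 genes stayed within 1.5 times of that number under 9 alternatives. It ran from 13 (no background correction, or an offset of 50) to 18 (quantile normalization within each tissue). This last setting is counted 2 times among the 9, because processing the striatum arrays on their own is the same computation. The count was 10 with probes detected on every array, 28 with every probe tested on its own, 88 with the 2 groups fitted alone and 93 with array weights. The series matrix values gave 0 calls in limma, with 720 genes at an unadjusted p under 0.05. Leaving out 1 array at a time gave 0 to 30 calls. Of 2 alternatives added after seeing the data, leaving out I/R array 4 and sham array 4 together gave 0 calls (961 at an unadjusted p under 0.05) and leaving out the 24 h arrays gave 81. The causes were not tested, except that fewer or more probes enter under the 2 probe rules. The replicate block gave 14 calls, of which 12 were among the 18; same-numbered I/R and sham arrays deviated together with correlations of 0.135, 0.178, -0.019 and -0.027, and 1 of 4 correlated best with its own number, so the numbers were not taken to pair the arrays. Slide as a block gave 15.

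No called gene changed sign under any of these alternatives: of 426 values 272 stayed past the threshold and 154 did not. The repeated setting counts 2 times among these values and among the list medians that follow. The difference in response between the tissues gave 0 calls under all 13 alternatives and all 16 fits without 1 array. Of 882 list medians 59 moved by more than the spread between the I/R arrays. Weak signals near the detection limit compress differences. There were 4 arrays a group, and genes such as Fos or Cxcl1 stay undecided. Fos and Cxcl1 had SDs of 1.09 and 1.26 at 2 h, and of 1.26 and 2.69 at 24 h. The called genes Npas4 and Fosb had 1.36 and 1.27 at 2 h, and 0.44 and 0.40 at 24 h. All striatum groups enter the error of the fit, and what left single genes uncalled was not tested.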
